A study of Mus musculus with 10 samples.

Results

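The complement genes described here are C1qa, C1qb, C1qc, C3, C4b, Cfb, Serping1, C3ar1 and C5ar1, chosen by gene name: 9 of the 36009 genes in the table of estimated counts. They were measured by polyA RNA sequencing in 10 CT26 tumors. CT26 is a mouse colorectal carcinoma cell line, grown subcutaneously here in female wild-type BALB/c mice, whose age the labels do not give. Most of each tumor was removed at surgery and kept for RNA. A hydrogel loaded with poly(I:C), a synthetic double-stranded RNA that triggers interferon production, was then placed on the tumor that remained. Every tumor was therefore untreated when sampled, and the groups differ in what happened later: the 6 responders regressed completely and the 4 non-responders grew without delay. The tumors were chosen from a larger experiment by that outcome, all came from the same cell line, and no untreated mice or second model enter the comparison. The question was whether complement transcripts in the tumor microenvironment (TME) before treatment differed between tumors that did and did not respond.

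Complement is a cascade of plasma and tissue proteins that tags targets and recruits phagocytes. C1q, assembled from the products of C1qa, C1qb and C1qc, starts the classical pathway, C4 and C2 form its C3-cleaving enzyme, and factor B (Cfb) provides the catalytic part of the alternative pathway enzyme. Cleavage of C3 and C5 releases small peptides that act on myeloid cells through the receptors C3ar1 and C5ar1, and C1 inhibitor (Serping1) restrains the C1 proteases. Much plasma complement is made in the liver, whereas C1q in tissues is made largely by macrophages and dendritic cells, and several components, C4 and factor B among them, are known to be induced by interferons.

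Of the 16041 genes that passed the filter on low counts, 1293 differed between responders and non-responders at an adjusted p under 0.05 (8.06%, edgeR quasi-likelihood test with Benjamini-Hochberg adjustment), 756 of them higher in responders (4.71%). In 936 genes (5.84%), every responder lay above every non-responder. Total estimated counts ran from 23374649 to 38042544 per tumor and the members held between 618 and 38420 counts in a tumor. Of 5 hepatocyte markers, Alb, Ttr and Fgb had at most 8 counts in any tumor, Serpina1a at most 42.1 and Apoa1 at most 96. Of 7 epithelial carcinoma markers, Epcam, Krt8, Krt18 and Vil1 had at most 19 counts in any tumor, Krt19 at most 20 and Cdx2 13 to 40, while Cdh1 held 78.6 to 233 counts (2.63 to 7.03 CPM). Most of the usual epithelial transcripts of the labelled carcinoma cells were thus scarce, with Cdh1 the highest. P-values weigh the difference between the groups against the spread between tumors within a group. Unless stated otherwise, values below are means ± SD over the 6 responders and the 4 non-responders, and log2 fold changes are given ± SE. In a bulk sample fewer cells of a type and less RNA per cell cannot be told apart.

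All 9 members passed the filter, and all 9 had a positive log2 fold change in responders, against 48.2% of all genes tested. That of C5ar1 was 0.02 ± 0.11 and turned negative in 4 of the 10 fits that each left out a tumor. Of the 9 members, 6 rose at an adjusted p under 0.05 (C1qa, C1qb, C1qc, C4b, Cfb and C3ar1), against a background of 4.71% of all genes tested. C3, Serping1 and C5ar1 did not pass. In 5 members (C1qa, C1qb, C1qc, Cfb and C3ar1) every responder lay above every non-responder, against 5.84% of all genes. The members were chosen with earlier results of these data known, so their excess over these shares is no test of the set. The median log2 fold change of the 9 was 0.65, and that of all genes tested was -0.01. The calls depended on single tumors, among the members and over all genes. In the fit without responder 4, 7 members passed (1619 of all genes), and 6 passed without non-responder 2 (1897 genes). Without responder 6, 4 passed (735 genes). The count was 2 without responder 1 (553 genes), responder 5 (412 genes) or non-responder 3 (366 genes), and 1 without responder 2 (244 genes). No member passed without responder 3, non-responder 1 or non-responder 4, where 17, 16 and 0 of all genes passed. No called member changed sign in any of these 10 fits, and the 6 called members and Serping1 had an unadjusted p under 0.05 in each. C3 had such a p only without responder 3, responder 4 or non-responder 4.

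**Figure D1:**
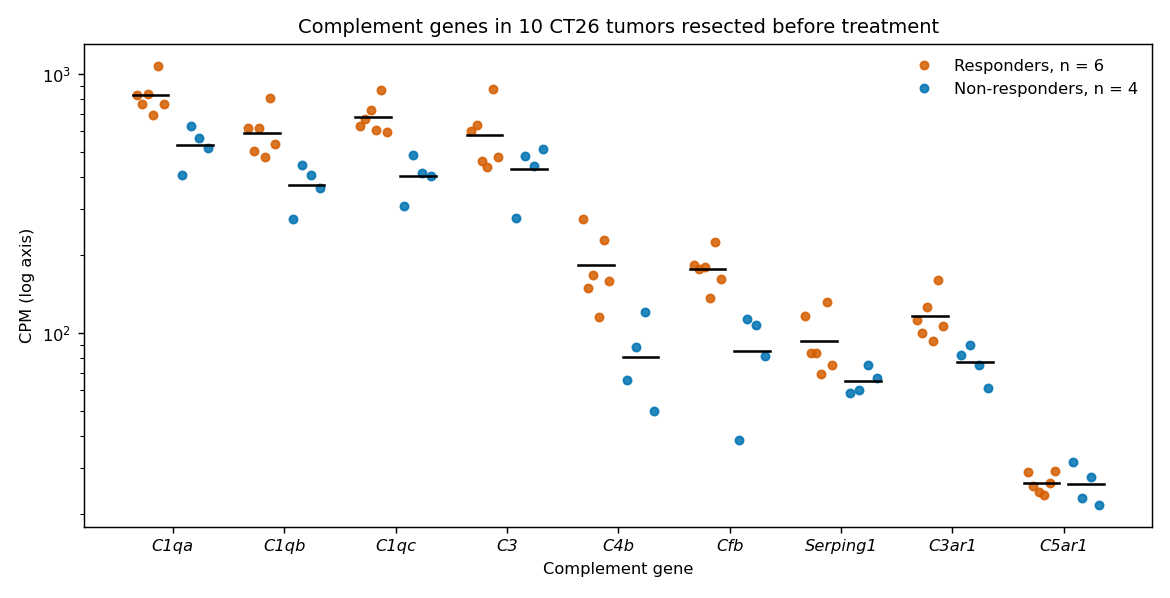
CPM (log axis) of the 9 complement genes in each of the 6 responders (orange) and 4 non-responders (blue), with black lines at the group means. The groups are apart for C1qa, C1qb, C1qc, Cfb and C3ar1, nearly so for C4b, and overlap for C3, Serping1 and C5ar1.

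The upstream sequence of 5 members (C1qb, C1qc, C3, C3ar1 and C5ar1) was found in RefSeq (GRCm38.p6). Shown here are those of the neighbouring C1qb and C1qc, which rose together, and those of the peptide receptors C3ar1 and C5ar1, of which C3ar1 alone passed, each written 5′ to 3′ along the gene's own strand (the minus strand) and limited to bases outside the annotated gene. Capitals mark a PU.1 motif (read on the opposite strand) in C1qc and an AP-1 motif in C3ar1.
C1qb chr4:136886201-136886450: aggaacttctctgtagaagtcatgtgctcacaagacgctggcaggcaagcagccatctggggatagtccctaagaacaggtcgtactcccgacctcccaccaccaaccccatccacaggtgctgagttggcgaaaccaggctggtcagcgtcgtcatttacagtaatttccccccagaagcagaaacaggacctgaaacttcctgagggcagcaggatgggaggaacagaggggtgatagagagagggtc
C1qc chr4:136893066-136893164: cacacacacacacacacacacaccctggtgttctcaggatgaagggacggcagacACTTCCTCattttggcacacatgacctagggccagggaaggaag
C3ar1 chr6:122856162-122856407: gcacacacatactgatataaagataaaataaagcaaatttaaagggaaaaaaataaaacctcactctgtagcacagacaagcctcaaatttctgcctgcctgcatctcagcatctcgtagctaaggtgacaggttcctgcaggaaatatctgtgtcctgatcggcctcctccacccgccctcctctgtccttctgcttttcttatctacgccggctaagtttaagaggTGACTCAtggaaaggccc
C5ar1 chr7:16259541-16259588: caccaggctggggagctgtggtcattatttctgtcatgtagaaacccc

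The motifs searched on both strands were GAAANNGAA (interferon regulatory factors), GAGGAAGT (PU.1, a myeloid factor) and TGANTCA (AP-1). Of 32851 mouse windows of the 250 bases before a gene start, 7.13% held the interferon regulatory factor motif, 2.44% the PU.1 motif and 6.75% the AP-1 motif. The PU.1 match in C1qc began 195 bases before the RefSeq start, the AP-1 match in C3ar1 began 22 bases before it, and no match overlapped another. The interferon regulatory factor motif did not occur in the sequences shown, and the full window of 250 bases of C5ar1, part of which lies inside the annotated gene, held 1 interferon regulatory factor motif. These are matches of letters only.

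The 3 genes of C1q were the most abundant members per length of transcript. C1qa had 797 ± 127 CPM per kilobase in responders and 509.7 ± 89.98 in non-responders, C1qc had 567.8 ± 84.98 and 336 ± 60.8, and C1qb had 546 ± 109.8 and 343 ± 67.2. C1qb and C1qc did not differ beyond their spread, and their order turned when exon bases of all transcripts were counted. C3 followed with 291 ± 82.4 and 214 ± 52.2 CPM per kilobase by the mean length of its coding transcripts. Because short C3 transcripts lower that length, the levels of C3 were 113 and 83.4 CPM per kilobase over all exon bases, still next below the C1q genes. Below it stood Cfb (92.5 ± 15.1 and 44.6 ± 17.8), Serping1 (54.3 ± 14.4 and 38.1 ± 4.42), C4b (34.0 ± 11.0 and 15.1 ± 5.68), C3ar1 (27.0 ± 5.57 and 18.0 ± 2.85) and C5ar1 (13.9 ± 1.24 and 13.7 ± 2.40). Neighbours in this order overlapped in responders, in non-responders or in both, except C3 and Cfb, which were apart in each group.

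All 3 chains of C1q, the recognition molecule of the classical pathway, were higher in responders. C1qa (chr4:136895917-136898803, GRCm38) ran from 694 CPM through a median of 801 to 1075 CPM in the 6 responders, and was at 409, 631, 564 and 516 CPM in non-responders 1 to 4. Every responder exceeded every non-responder, with an SD of 132 CPM in responders and 93.6 CPM in non-responders and a log2 fold change of 0.65 ± 0.14 (adjusted p by edgeR = 0.0295).

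C1qb (chr4:136880129-136886187) ran from 477 through a median of 578 to 806 CPM in responders, and was at 276, 447, 406 and 363 CPM in non-responders 1 to 4. The groups did not overlap, though the lowest responder and the highest non-responder were close, and the log2 fold change was 0.67 ± 0.16 (adjusted p by edgeR = 0.0370). C1qc (chr4:136889804-136893065) ran from 599 through a median of 649.9 to 868 CPM in responders and was at 310.5, 489, 416 and 403 CPM in non-responders 1 to 4. It had the smallest adjusted p of the members, with groups well apart and a log2 fold change of 0.76 ± 0.13 (adjusted p by edgeR = 0.0229).

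The 3 chains kept nearly fixed proportions. Over the 10 tumors, the SD of the log2 ratio of C1qa to C1qb was 0.061, against 0.40 for C1qa and 0.44 for C1qb alone. The ratio of C1qa to C1qc had an SD of 0.093, and that of C1qb to C1qc an SD of 0.12. The genes lie on the minus strand within 18675 bases, and of the 2 other tested genes within 100 kb of them, Ephb2 had a log2 fold change of -0.07 (adjusted p by edgeR = 0.540) and Zbtb40 fell by 0.27 on the log2 scale (adjusted p by edgeR = 0.0432). Neither of these adjacent genes rose.

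The mean of macrophage markers was higher in responders, as C1q was, though not every marker rose. The mean log2 CPM of 10 macrophage markers was 7.08 to 7.52 in responders and 6.65 to 6.96 in non-responders. Their summed level was 3247 to 4336 against 2524 to 2994 CPM. Of the 10, 6 were called higher, Adgre1, Cd68 and Lyz2 among them, against 4.71% of all genes tested. Csf1r, Mertk, Trem2 and Mrc1 did not pass, with log2 fold changes of 0.24, 0.03, 0.03 and -0.13 (adjusted p by edgeR = 0.130, 0.888, 0.913 and 0.494). Mrc1 was at 349 to 472 CPM in responders and 366 to 556 CPM in non-responders. Since the marker means did not overlap between the groups, the macrophage level and the response label cannot be told apart. With that mean as a covariate, the log2 fold change was 0.05 ± 0.11 for C1qa, -0.06 ± 0.12 for C1qb and 0.23 ± 0.14 for C1qc, and no gene of the 16041 passed in edgeR, with 875 at an unadjusted p under 0.05. With the mean of the interferon response markers described below it was 0.39 ± 0.13, 0.38 ± 0.15 and 0.50 ± 0.12.

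Of the 3 members that contribute to the convertases, C4b and Cfb rose and C3 did not pass. C4b (chr17:34728380-34743882), the classical pathway component C4, ran from 116 through a median of 163 to 277 CPM in responders and was at 65.6, 88.0, 120.4 and 50.01 CPM in non-responders 1 to 4. Responder 4 lay below non-responder 3, and the other 5 responders lay above all non-responders. The means were 183 ± 58.9 CPM and 81.0 ± 30.5 CPM, and the log2 fold change was 1.18 ± 0.28 (adjusted p by edgeR = 0.0360), the largest of the members. C4b has a near-identical copy, C4a, not analysed here, so the assignment of reads between them is uncertain.

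Cfb (chr17:34856374-34862518), the protease of the alternative pathway convertase, ran from 136 through a median of 178 to 224 CPM in responders and was at 38.6, 113, 108 and 81.6 CPM in non-responders 1 to 4. No values overlapped, and non-responder 1 stood far below the rest. The means were 177 ± 28.9 CPM and 85.2 ± 34.0 CPM, with a log2 fold change of 1.05 ± 0.25 (adjusted p by edgeR = 0.0360). Gm20547, a transcript that joins C2 and Cfb on the same strand, shares exons with Cfb and held at most 177 counts in a tumor, against at least 955 for Cfb, so the division of reads between them is uncertain.

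C3 (chr17:57203970-57228136), on which all pathways converge, ran from 436 through a median of 541 to 875 CPM in responders and was at 278, 482, 442.5 and 512 CPM in non-responders 1 to 4. The groups overlapped, with only responders 1, 2 and 5 above all non-responders. The log2 fold change was 0.44 ± 0.22 (95% interval -0.03 to 0.91, adjusted p by edgeR = 0.199), an interval that holds both 0 and the estimates of C1qa, C1qb and C1qc.

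C4b and Cfb lie 112491 bases apart on chromosome 17, in the major histocompatibility complex. Of 15 other genes tested in and within 100 kb of that stretch, none passed in edgeR, against 8.06% of all genes, though 4 had an unadjusted p under 0.05, 3 passed in DESeq2 and none in limma voom. Their median log2 fold change was 0.07 with a range of -0.14 to 0.90. The highest was C2, the partner of C4 in the classical convertase, whose gene lies 85 bases from Cfb. C2 was at 13.1 ± 2.75 CPM in responders and 7.04 ± 3.07 CPM in non-responders, with an edgeR adjusted p of 0.0639.

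Interferon response markers, Cxcl9 among them, were lowest in the same tumor as Cfb, non-responder 1. Their mean log2 CPM was 6.87 to 7.34 in responders and 5.29 to 7.10 in non-responders, so the groups overlapped, their summed level was 2210 to 3277 against 540.0 to 2454 CPM, and none of the 10 markers passed in edgeR or limma voom, though 7 had an unadjusted p under 0.05 and 1 passed in DESeq2. With that mean as a covariate, the log2 fold change was 0.49 ± 0.13 for Cfb, 0.83 ± 0.32 for C4b and 0.08 ± 0.24 for C3. With the macrophage mean instead, it was 0.20 ± 0.31, 0.58 ± 0.46 and -0.29 ± 0.27. No member, and no other gene, passed after adjustment with either covariate. With the interferon covariate 6 members had an unadjusted p under 0.05, as did 2000 of the 16041 genes. With the macrophage covariate no member had such a p, and 875 of the 16041 genes did. The macrophage means, unlike the interferon means, did not overlap between the groups, and what set these counts apart was not tested.

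Serping1 (chr2:84765387-84775444), the inhibitor of the C1 proteases, ran from 69.6 through a median of 83.7 to 132 CPM in responders and was at 58.7, 60.3, 75.4 and 67.1 CPM in non-responders 1 to 4. The 2 lowest responders fell among the non-responders. Its log2 fold change of 0.51 ± 0.17 (95% interval 0.13 to 0.89) did not pass after adjustment (adjusted p by edgeR = 0.0834), and it passed without responder 4 (adjusted p by edgeR = 0.0484).

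The receptors for the C3 and C5 peptides differed in their values. C3ar1 (chr6:122847138-122856161) ran from 93.5 through a median of 109 to 159.8 CPM in responders and was at 82.5, 90.0, 75.5 and 61.2 CPM in non-responders 1 to 4. The groups did not overlap, although responder 4 and non-responder 2 were close. The log2 fold change was 0.59 ± 0.15 (adjusted p by edgeR = 0.0413), and it was 0.10 ± 0.21 with the macrophage and 0.53 ± 0.20 with the interferon covariate.

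C5ar1 (chr7:16246743-16259540) was the least abundant member and varied least, from 23.7 through a median of 26.0 to 29.3 CPM in responders, with 31.7, 23.1, 27.8 and 21.7 CPM in non-responders 1 to 4. The highest and the lowest tumor were both non-responders. Its log2 fold change was 0.02 ± 0.11 (95% interval -0.21 to 0.25, adjusted p by edgeR = 0.925), an interval that leaves out a rise of the size estimated for C3ar1. Neutrophil markers, from cells known to carry C5ar1, had mean log2 CPM of 3.39 to 4.36 in responders and 3.63 to 4.23 in non-responders, with 1 of 6 markers called lower and none higher.

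**Figure D2:**
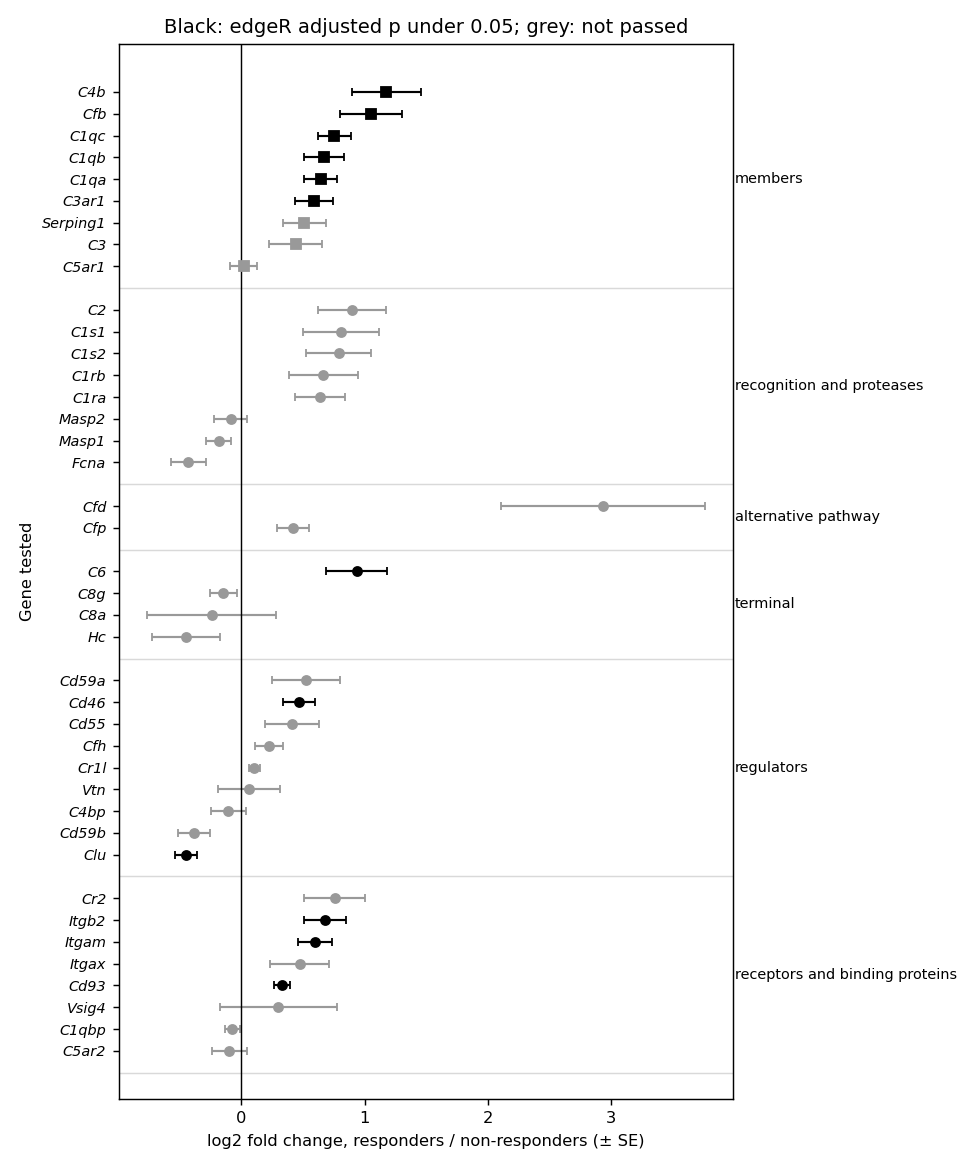
The log2 fold change (responders over non-responders, ± SE) of the 9 members (squares) and 31 other complement genes tested (circles), grouped by role, black where the edgeR adjusted p was under 0.05. C4b and Cfb stand farthest right among the members and C5ar1 sits at 0.02, while Cfd, at 2.93, has the widest error.

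The members did not rank the tumors in the same way. Responder 5 was highest for 7 of the 9 members, responder 1 for C4b and non-responder 1 for C5ar1. Non-responder 1 was lowest for 6 members, and non-responder 4 for C4b, C3ar1 and C5ar1. Relative to each gene's mean over the 10 tumors on the log2 scale, C4b was 1.33 lower in non-responder 4 and Cfb 1.72 lower in non-responder 1, where C4b was 0.94 lower. C4b and Cfb therefore had their lowest values in different tumors. C3 in non-responder 4 stood at 0.03 above its mean, above responders 3, 4 and 6.

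**Figure D3:**
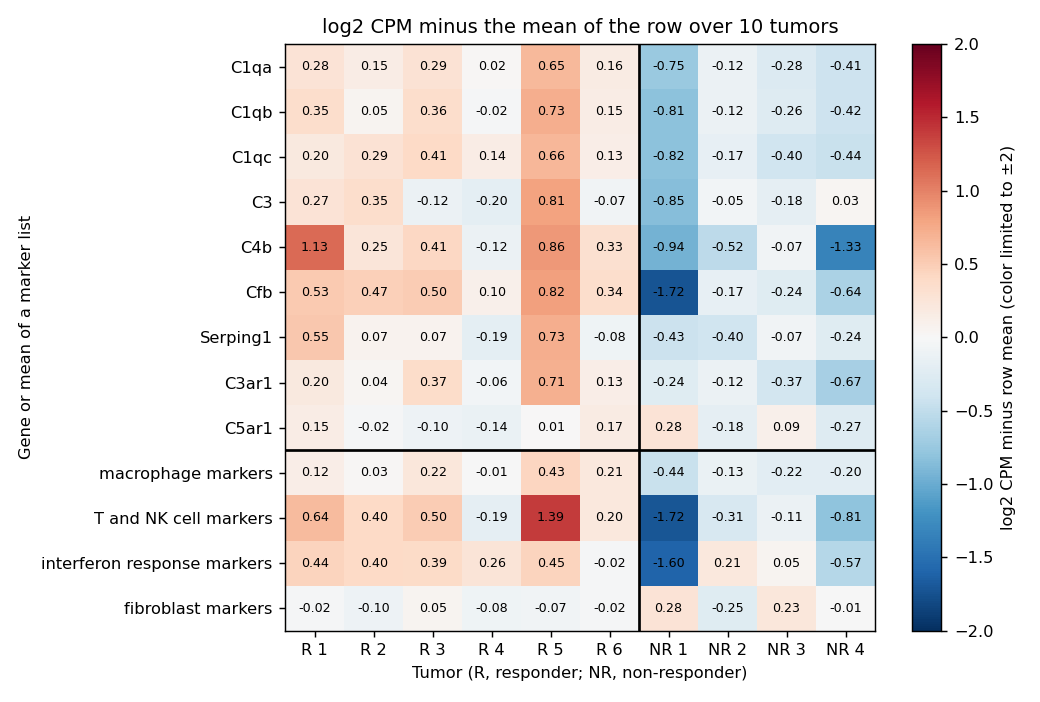
log2 CPM minus the mean of each row over the 10 tumors, for the 9 members and the means of 4 marker lists, with red above and blue below the mean. Responder 5 is highest for 7 members, non-responder 1 is lowest for 6, and C5ar1 and the fibroblast markers show no split by response.

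T and NK cell markers also tracked these extremes, with mean log2 CPM of 3.18 to 4.75 in responders and 1.65 to 3.25 in non-responders, the highest in responder 5 and the lowest in non-responder 1. Among the 7 markers 1 (Nkg7) was called higher, against 4.71% of all genes tested. All 7 estimates were positive, from a log2 fold change of 0.91 for Klrb1c to 1.91 for Cd8a. Their adjusted p by edgeR ran from 0.0408 for Nkg7 to 0.102 for Gzmb. Fibroblast markers were at 8.70 to 8.86 in responders and 8.55 to 9.08 in non-responders, with 1 of 7 called lower. The part of these cells in the complement values was not tested.

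Ratios of members within a tumor, chosen after their values were seen and so given without a test, were compared for 6 pairs. The log2 ratio of Cfb to C3 was -1.69 ± 0.21 in responders and -2.41 ± 0.40 in non-responders, with every responder above every non-responder. That of C4b to Serping1 was 0.95 ± 0.20 and 0.24 ± 0.49, again with no overlap. C4b to C3 gave -1.69 ± 0.36 and -2.44 ± 0.65, where 3 responders exceeded every non-responder. The ratio of C3ar1 to C5ar1 was 2.12 ± 0.30 and 1.57 ± 0.27, with 3 of 6 responders above. C1qc to C3 was 0.26 ± 0.27 and -0.06 ± 0.21, and C1qb to C1qa was -0.49 ± 0.07 and -0.51 ± 0.04. Cfb relative to C3, and C4b relative to Serping1, thus did not overlap between the groups, and the ratio of C1qb to C1qa differed by less than its spread.

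**Figure D4:**
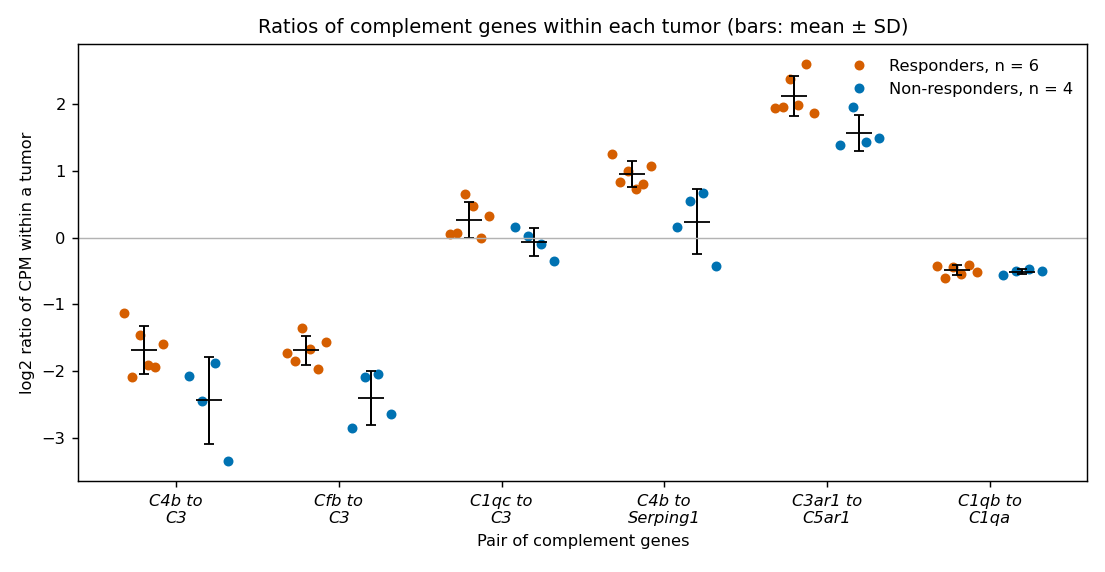
The log2 ratio of CPM within each tumor for 6 pairs of members in responders (orange, n = 6) and non-responders (blue, n = 4), with black marks for the mean ± SD. The ratios of Cfb to C3 and of C4b to Serping1 do not overlap between groups, and C1qb to C1qa stays near -0.5 in every tumor.

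The genes most like each member over the 10 tumors were sought among 10085 other genes that averaged at least 10 CPM, by Pearson's r of log2 CPM, which mixes the difference between groups with the variation inside them. C1qa was closest to Clec4a3, Arhgap30 and Pld4 (each r = 0.994), and C1qb to Clec4a3 (0.996), Pld4 (0.996) and Tifa (0.994). C1qc was closest to Unc93b1 (0.992), Crybg1 (0.991) and Irf5 (0.991). Clec4a3 encodes a lectin-like receptor of myeloid cells, Unc93b1 a chaperone of endosomal Toll-like receptors and Irf5 a transcription factor downstream of them. Chosen for likeness over the same 10 tumors to members that passed, these genes were likely to pass the test as well. All of them did, Clec4a3 with a log2 fold change of 0.87 (adjusted p by edgeR = 0.0360) and Unc93b1 with 0.86 (adjusted p by edgeR = 0.0207).

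Cfb was closest to H2-Ab1 (r = 0.995), which encodes an MHC class II chain, then to Plaat3 (0.995) and Tifab (0.993). C4b was closest to Wfdc17 (0.978), Ifi27l2a (0.961), an interferon-induced gene, and Fpr1 (0.955), a formyl peptide receptor of phagocytes. C3 was closest to the kinase gene Pim2 (0.983), to Slamf6 (0.960), a receptor of lymphocytes, and to Rhoh (0.956), and none of these passed the test. None of the 3 was among the genes nearest to another member.

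Serping1 was closest to Rhog (0.965), Esyt1 (0.963) and Ppt2 (0.954), and C3ar1 to Itgam (0.987), Gpr137b (0.974) and Tlr2 (0.969). Itgam encodes a chain of complement receptor 3 and Tlr2 a Toll-like receptor of myeloid cells. C5ar1 had the weakest likeness, to Vcan (0.880), Tirap (0.857) and Lbp (0.830). Among the 6 responders alone these 3 fell to 0.699, 0.723 and 0.528, while Clec4a3 with C1qb stayed at 0.991.

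Beyond the members, 46 other complement genes were listed, of which 31 were tested, 14 were under the filter with at most 8 counts in any tumor, and C4a was not analysed here. Of the 31, 5 rose (C6, Cd46, Itgam, Itgb2 and Cd93), 1 fell (Clu) and 25 did not pass, which is 19.4% called against 8.06% of all genes. Their median log2 fold change was 0.33, with 20 of 31 positive, against 48.2% of all genes tested. In 8 of them every responder lay above every non-responder, against 5.84% of all genes, and in Clu every responder lay below. This list, too, was written with earlier results of these data known. Without responder 3, non-responder 1 or non-responder 4 none of the 31 passed in edgeR (14 to 16 had an unadjusted p under 0.05). In these fits 17, 16 and 0 of all genes passed. Of the 31, 1 passed without responder 2 or non-responder 3, 3 without responder 1 or responder 6, and 4 without responder 5. Without responder 4, 8 passed, and without non-responder 2, 10 did, where 1619 and 1897 of all genes passed. Over the 10 fits that each left out a tumor, Cd93 passed in 7, Clu in 5, Itgam in 4, C6 and Itgb2 in 2 and Cd46 in 1.

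Recognition and protease genes gave no call by edgeR in 8 tested of 14 listed, although 6 of the 8 had an unadjusted p under 0.05, and 4 passed in DESeq2 and none in limma voom. C1s1, the C1s protease gene and the most abundant of this group, was at 314 ± 79.3 CPM in responders and 179 ± 84.5 CPM in non-responders, with a log2 fold change of 0.81 ± 0.31 (adjusted p by edgeR = 0.112). C1ra, the partner protease, had no overlap, from 179.9 to 259 CPM in responders and from 78.6 to 172 CPM in non-responders, with a log2 fold change of 0.64 ± 0.20 (adjusted p by edgeR = 0.0677). Both have close copies, C1s2 and C1rb, between which reads can be split. The lectin pathway recognition genes Mbl1 and Mbl2 had no count in any tumor, which allows up to 0.128 CPM in the smallest library (3 counts, for counting error only).

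In the alternative pathway group, neither gene passed in edgeR or limma voom, and both passed in DESeq2 and at an unadjusted p under 0.05. Cfp, the stabilizer properdin, was at 153 ± 32.3 CPM in responders and 115 ± 6.67 CPM in non-responders, without overlap (log2 fold change 0.42 ± 0.13, adjusted p by edgeR = 0.0645). Cfd, factor D or adipsin, the protease that cleaves factor B, had the largest estimate of the 40 complement genes tested. It ran from 2.73 through a median of 18.8 to 26.8 CPM in responders and from 0.161 to 6.23 CPM in non-responders, with a log2 fold change of 2.93 ± 0.83 (adjusted p by edgeR = 0.0517). Cfd is abundant in fat cells, and 5 tested adipocyte markers had a summed level of 90.3 to 179 CPM in responders and 29.3 to 62.4 CPM in non-responders, 2 of them called higher. The part of fat tissue in the Cfd values was not tested.

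Of the terminal genes, whose products form the membrane attack complex, C6 rose, from 42.0 ± 17.5 CPM in non-responders to 80.3 ± 9.95 CPM in responders, a log2 fold change of 0.94 ± 0.25 (adjusted p by edgeR = 0.0446). The others were scarce. Hc, the gene of C5, stood at 0.632 ± 0.141 CPM in responders and 0.847 ± 0.336 CPM in non-responders, C7 had at most 3 counts in any tumor and C9 at most 2. C6 was thus the most abundant of the terminal genes tested.

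Of the regulators, Cd46, a membrane cofactor that helps inactivate C3b and C4b, rose by a log2 fold change of 0.47 ± 0.13 (adjusted p by edgeR = 0.0478) at a low level, 6.35 ± 0.905 CPM in responders and 4.597 ± 0.508 CPM in non-responders. It did not pass in limma voom (adjusted p = 0.0598) or in edgeR without the filter on low counts (adjusted p = 0.0615). Clu, clusterin, which keeps terminal complexes off membranes, was the sole complement gene that fell, with 73.4 to 91.2 CPM in responders and 94.7 to 129 CPM in non-responders and a log2 fold change of -0.45 ± 0.09 (adjusted p by edgeR = 0.0264). The remaining 7 regulators tested did not pass.

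Of the receptors and binding proteins, 3 of 8 rose. Itgam and Itgb2, the chains of complement receptor 3, had log2 fold changes of 0.60 ± 0.14 and 0.68 ± 0.17 (adjusted p by edgeR = 0.0330 and 0.0413), and were at 200.4 ± 37.0 and 208 ± 34.9 CPM in responders. Cd93, a surface protein of endothelial and myeloid cells once described as a C1q receptor, rose by 0.33 ± 0.07 (adjusted p by edgeR = 0.0263), with little spread among non-responders (119.9 ± 4.44 CPM) and 151 ± 13.1 CPM in responders. Itgax, a chain of complement receptor 4 and the most abundant of this group, was at 242 ± 24.8 CPM in responders and 174 ± 76.0 CPM in non-responders and did not pass (log2 fold change 0.47 ± 0.24, adjusted p by edgeR = 0.210). Cr2, complement receptor 2, had no overlap at 0.396 to 0.678 and 0.217 to 0.373 CPM (log2 fold change 0.76 ± 0.24, adjusted p by edgeR = 0.0724). Itgam and Itgb2 are also general myeloid genes. With the macrophage mean as a covariate their log2 fold changes were 0.17 ± 0.20 and 0.05 ± 0.20. With the interferon mean they were 0.56 ± 0.18 and 0.30 ± 0.12. The part of myeloid cells in the values of Itgam and Itgb2 was not tested.

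**Figure D5:**
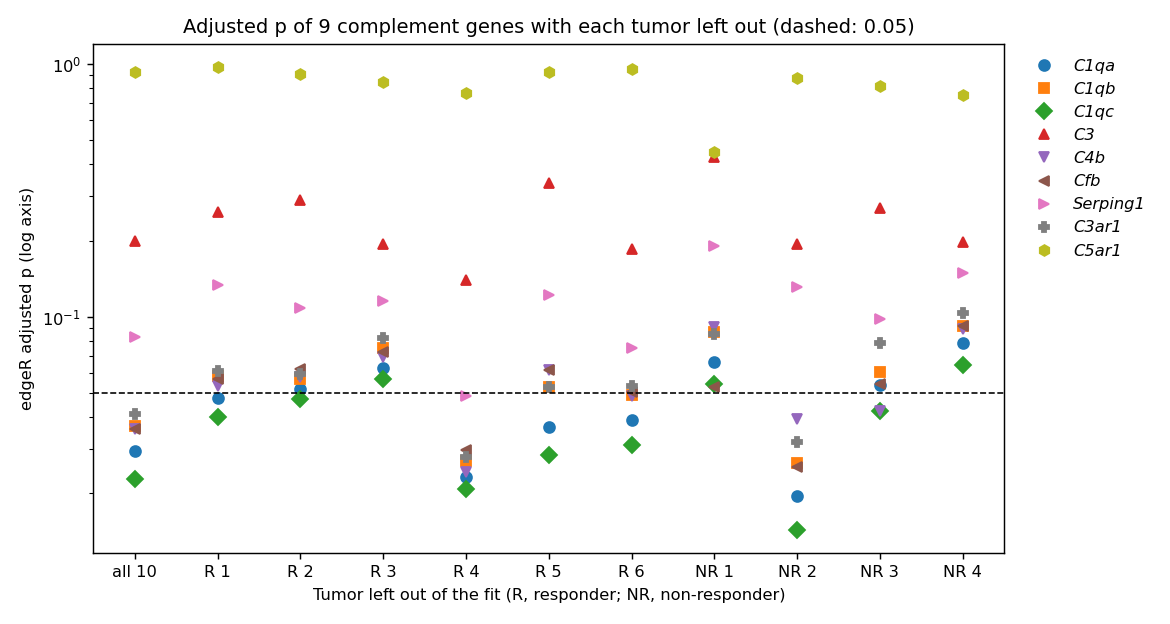
edgeR adjusted p (log axis) of the 9 members with all 10 tumors and with each tumor left out (R, responder; NR, non-responder), with 0.05 dashed. C1qc lies below 0.05 in 7 of the 10 reduced fits, Cfb and C3ar1 in 2, and C3 and C5ar1 in none.

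The members differed in how often they passed when a tumor was left out. C1qc passed in 7 of 10 such fits (log2 fold change 0.65 to 0.86, edgeR adjusted p 0.0144 to 0.0645) and C1qa in 5 (0.55 to 0.74). C4b passed in 4 (1.001 to 1.43), C1qb in 3 (0.56 to 0.77), and Cfb (0.82 to 1.22) and C3ar1 (0.48 to 0.67) in 2 each. These estimates stayed positive, with the widest ranges for C4b and Cfb, while the adjusted p crossed the threshold. Over the same fits, the number of all genes that passed ran from 0 to 1897.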

How the data were processed

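The authors checked reads with FastQC, estimated transcript abundance with Kallisto on GRCm38 (mm10) and summed it to genes with tximport, and the deposited values are estimated counts (expected counts, 45.1% of them not whole) for 36009 genes. The annotation release, the tximport scaling, the strand setting and any batch are not given in the sources used here, so overlapping and near-identical genes are uncertain.

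Counts were rounded and tested with edgeR (4.0.16, R 4.3.3): filterByExpr (minimum count 10, minimum total 15), TMM, quasi-likelihood F test over 16041 genes, Benjamini-Hochberg adjustment, threshold 0.05. SE is the log2 fold change over the square root of F. CPM uses TMM library sizes, and log2 CPM a prior count of 2. Scripts were tested on simulated data. DESeq2 (1.42.0) and limma (3.58.1) served as alternatives. In the simulated data, made with dispersions estimated by edgeR and with 200 genes changed 4-fold, 14.2% of the genes called by DESeq2 were unchanged. That share was 5.24% for edgeR and 4.37% for limma voom. These shares belong to that setting and need not hold for the calls in the tumors. Coordinates and lengths come from GENCODE M21 (35912 identifiers matched, 97 not), and 9633 rows bear no gene name.

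The members and all lists were chosen with earlier results of these data known. Named were the members, other complement genes that passed, whose groups did not overlap, or that were the most abundant of their role, the 3 genes most like each member, and marker or neighbouring genes beside a result. Cfd, C2, Hc, C7, C9, Mbl1 and Mbl2 were named after their values were seen.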

Additional observations from a re-analysis of the deposited data

Results flagged for a closer look

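In the 74 groups of values examined for complement genes, 2 had a tumor far from the others of its group, where chance gives about 3.7. Cd46 in non-responder 1 was at 3.84 CPM, while the other non-responders lay between 4.81 and 4.89 CPM (gap over range 0.930, critical value 0.829). Cfp in responder 5 was at 216.0 CPM, while the other responders lay between 125 and 156 CPM (gap over range 0.662, critical value 0.625). Responder 5 was also highest for 7 of the 9 members.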

How the results depend on the processing

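The 6 calls among members became 7 with DESeq2 and stayed 6 in number with limma voom, RLE scaling, no filter and the study's CPM filter. Over all genes, DESeq2 called 2602 against 1293, and over the other complement genes 13 against 6, while limma voom and the fit without a filter called 5 each. With the macrophage or the interferon mean as a covariate, edgeR called 0 genes in all, 0 members and 0 other complement genes, although 875 and 2000 genes had an unadjusted p under 0.05. Leaving out each tumor gave 0 to 1897 genes, 0 to 7 members and 0 to 10 other complement genes, with 4106 genes at an unadjusted p under 0.05 in the fit that called 0 (without non-responder 4). With the macrophage covariate, 14 of the other complement genes had a positive estimate, against 20, and among the members and the other complement genes chosen by the naming rule the log2 fold change turned negative for C1qb (-0.056), C1s1 (-0.031), C3 (-0.292), Cd46 (-0.025), Cfp (-0.026), Itgax (-0.104) and Serping1 (-0.019), and with the interferon covariate for Itgax (-0.029). That of C5ar1 ranged from -0.061 to 0.133 with a tumor left out. Fewer tumors entered the fits that left a tumor out, and otherwise the cause was not tested. No paired analysis was possible because replicate numbers follow the order of deposit and the labels pair no tumors.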

Other observations

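Some complement genes had estimates below 0 without passing the test. Fcna, which encodes a ficolin of the lectin pathway, was at 39.1 ± 5.21 CPM in responders and 52.5 ± 11.7 CPM in non-responders, with a log2 fold change of -0.43 ± 0.14 (adjusted p by edgeR = 0.0765). Masp1, a lectin pathway protease gene, was at 128 ± 14.7 and 145 ± 19.4 CPM (log2 fold change -0.18 ± 0.10, adjusted p by edgeR = 0.253). Cd59b, an inhibitor of the membrane attack complex, was at 7.14 ± 0.641 and 9.29 ± 1.89 CPM (log2 fold change -0.38 ± 0.13, adjusted p by edgeR = 0.0785). These genes were named after their values were seen.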
